A study of Papaver somniferum with 12 samples.

Results

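Cultivar Z of an opium poppy (Papaver somniferum) breeding programme, here called the morphine line, was compared with cultivar T, here called the thebaine line. The paper does not use these names. It measured morphine in dry leaves of both, more in Z, and detected thebaine in T but not in Z. Leaves were taken at the filling stage, when the capsule swells after the petals have dropped, and RNA was sequenced from 3 libraries of Z and 3 of T. T has purple-spotted white flowers and white latex, whereas Z has the same flower and light red latex. Both came from directed breeding at 1 institute and were grown on the same plot, and no treatment separated them. The methods call the samples of a cultivar independent, but do not say whether a library held 1 plant or several. The members of the comparison were the unigenes, sequences built by the authors from long reads of the older cultivar B1, that reached 1 RPKM or more in at least 3 of the 6 libraries. RPKM counts reads relative to transcript length and to all mapped reads in a library. Of 61856 unigenes in the table, 30035 met this rule. Another 1410 reached 1 RPKM in only 2 of the 6 libraries and were left out, and 1266 of those kept reached it in exactly 3. The study also sequenced 3 libraries each of the cultivars B2 and G, and their values are given where they show where a unigene stands outside the comparison.

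Morphine and thebaine belong to the benzylisoquinoline alkaloids, which opium poppy builds from tyrosine by way of reticuline. Thebaine is the first morphinan with the full pentacyclic skeleton of the series, and it is converted to codeine and morphine by dioxygenases that remove its methyl groups and by a reductase. A poppy that stops before these steps stores thebaine in place of morphine. In this plant the alkaloids are kept in laticifers, the latex cells that run beside the phloem, while several enzymes of the route are made in neighbouring sieve elements and companion cells. None of these genes could be read from the table by name. The deposited identifiers are labels from long-read naming, which RefSeq records do not carry. A comparison by identifier with 91581 RefSeq genes of opium poppy therefore could not match, and 0 of 61856 did. The paper states that a functional annotation was placed in Figshare and GEO, and it was not used here. Each unigene is thus given by its identifier only, with no function and no sequence. Without gene names the leaf label could not be set against marker genes.

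The identifiers have the form PB, a first number and a second number, and the first number is the one that groups transcripts in the naming of long-read tools. It was asked whether other unigenes with the same first number moved with or against a unigene that differs. The 61856 unigenes carried 61856 different first numbers, and 0 shared theirs with another unigene. The second number was above 1 in 18196 of them, as in PB.57483.41. The table therefore holds 1 entry for each first number, and no companion of a unigene could be followed in either direction. The paper lists more transcript forms than unigenes, and does not say whether a value includes reads of the other forms. A low value of a unigene may thus leave other transcripts with its first number unmeasured.

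The 6 libraries fell together by cultivar. Over the 30035 unigenes, Pearson's r of log2(RPKM + 1) ran from 0.977 to 0.988 for the 6 pairs within a cultivar and from 0.958 to 0.969 for the 9 pairs between cultivars, as a description across unigenes, which are not independent. Summed RPKM lay between 993016 and 1053799, and the number of unigenes reaching 1 RPKM in a library lay between 28977 and 29744. The unigene PB.225.272, the highest by its mean over the 6 libraries, held 7.62% to 10.2% of summed RPKM in each. How many reads stand behind a value is not given, so no counting interval is given.

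Between Z and T, 391 of 30035 unigenes were called different, 1.30% of those tested. The call needed an adjusted p under 0.05 in limma's moderated test, with Benjamini-Hochberg adjustment, and a difference of at least 1 in log2(RPKM + 1). Higher in Z were 201 unigenes (0.669%), and lower in Z were 190 (0.633%), so the calls were close to even. The median difference was 1.35 among those higher in Z and -1.44 among those lower, against -0.03 over all tested unigenes. Most calls were below 2 in size. Only 36 unigenes were higher in Z by 2 or more on this scale, and 43 were lower by as much. At 3 or more the numbers were 15 and 26. In bulk leaf RNA, fewer cells that make a transcript and less of it per cell cannot be told apart.

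**Figure D1:**
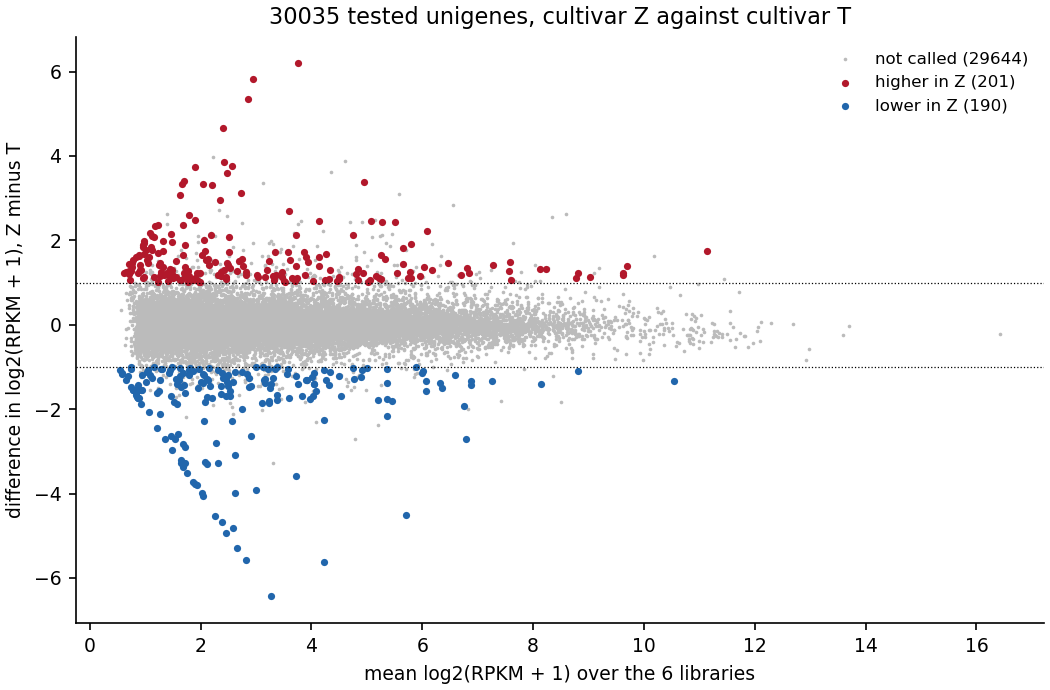
Difference in log2(RPKM + 1), Z minus T, against the mean log2(RPKM + 1) over the 6 libraries, 1 point per tested unigene. The 201 unigenes called higher in Z and the 190 called lower are coloured, dotted lines mark a difference of 1 in either direction, and the straight lower and upper edges at the left hold unigenes near 0 RPKM in 1 cultivar.

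The adjusted p alone was passed by 1111 unigenes (3.70%), of which 720 differed by less than 1. A difference of 1 or more was reached by 756 (2.52%), and 365 of these had an adjusted p of 0.05 or more. In 126 of the 365 the values of Z and T overlapped. All 391 called unigenes had values that did not overlap, with every Z library above or every Z library below every T library. Groups without overlap were found for 27.4% of all tested unigenes, so this alone says little about a unigene. An exact permutation test of 3 libraries against 3 cannot give a p below 0.1, and the p-values therefore come from the fit across all unigenes.

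Called unigenes were found at every level of expression. By the mean of the cultivar in which the unigene was higher, 0.905% of 14360 unigenes below 5 RPKM were called, 1.45% of 9271 from 5 to 20 RPKM, 1.87% of 4748 from 20 to 100 RPKM and 2.29% of 1656 above 100 RPKM. The share thus grew with the level. The median standard error was 0.135, 0.114, 0.0999 and 0.111 in these classes from low to high. The largest called difference was 2.44 below 5 RPKM, 4.06 from 5 to 20 RPKM, 6.43 from 20 to 100 RPKM and 6.19 above 100 RPKM, and log2(RPKM + 1) compresses the low levels. Some called unigenes had little transcript in 1 cultivar. All 3 T libraries were below 1 RPKM in 55 of those higher in Z, and all 3 Z libraries in 67 of those lower. The share of such unigenes among all tested was not counted, so these numbers stand without a base share. Such unigenes entered the test only through the cultivar in which they were high.

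The unigenes described next were picked by size. Among the called unigenes with a mean of at least 10 RPKM in the higher cultivar, 96 were higher in Z and 94 lower, and the 8 with the largest difference in each direction follow.

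PB.25482.1 had the largest difference of those higher in Z. It was at 109.41, 130.46 and 104.99 RPKM in Z replicates 1, 2 and 3 and at 0.29, 1.08 and 0.46 RPKM in T. All 3 Z libraries were about alike and far above T, a difference of 6.19 (SE 0.185, limma adjusted p = 1.04e-05). In G it had 63.7 ± 13.5 RPKM (SD, n = 3), below each Z library, while B2 was at 0.12 and 0.34 RPKM in replicates 1 and 2 and at 5.29 RPKM in replicate 3. PB.14587.1 had the same order of means at a lower level. It was at 65.32, 33.26 and 43.69 RPKM in Z and at 0.13, 0.11 and 0.17 RPKM in T (difference 5.36, SE 0.223, limma adjusted p = 4.76e-05). G had 16.9 ± 4.15 RPKM, between the other levels, and B2 was again low in replicates 1 and 2 (0.18 and 0.08 RPKM) and higher in replicate 3 (3.38 RPKM).

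PB.20390.1 had the smallest error of these 8, with T near 0, where the scale compresses spread. Its values were 55.96, 55.90 and 60.20 RPKM in Z and 0.03, 0.02 and 0.04 RPKM in T, with a difference of 5.82 (SE 0.0814, limma adjusted p = 3.15e-07). T stood alone here, since B2 had 44.0 ± 10.3 RPKM and G 28.4 ± 1.90 RPKM (SD, n = 3 each). PB.30881.1 was also close to 0 in T, at 0.06, 0.04 and 0.06 RPKM, and at 29.92, 22.84 and 25.37 RPKM in Z (difference 4.67, SE 0.116, limma adjusted p = 5.14e-06). G had 11.96 ± 5.65 RPKM and B2 2.66 ± 0.969 RPKM, and the values of the 4 cultivars did not overlap. PB.28286.1 was at 19.32, 18.85 and 20.42 RPKM in Z and at 0.55, 0.36 and 0.33 RPKM in T (difference 3.86, SE 0.0998). B2 and G lay between, at 9.19 ± 1.18 and 6.56 ± 0.954 RPKM.

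In the remaining 3 of the 8 a library was also out of step in some cultivar, as B2 replicate 3 was in PB.25482.1 and PB.14587.1. PB.25454.1 was at 20.42, 18.14 and 24.41 RPKM in Z and at 0.51, 0.54 and 0.83 RPKM in T (difference 3.752, SE 0.137). In G it had 12.60 RPKM in replicate 2, against 0.52 and 0.91 RPKM in replicates 1 and 3. PB.52911.1 was even in Z, at 13.34, 12.77 and 12.20 RPKM, and was listed at 0 in T replicates 1 and 3 and at 0.07 RPKM in T replicate 2 (SE of the difference 0.0938, limma adjusted p = 5.14e-06). In B2 it had 88.06 and 117.18 RPKM in replicates 1 and 2 but 0.39 RPKM in replicate 3, and with the spread shared over all 12 libraries its call was lost (adjusted p = 0.196). PB.53845.1 was at 26.79, 16.17 and 14.10 RPKM in Z, while T had 0.05 RPKM in replicate 1, 2.94 RPKM in replicate 2 and a listed 0 in replicate 3. The 2.94 RPKM of T replicate 2 widened its error (difference 3.59, SE 0.533, limma adjusted p = 0.0182), and the call was lost in 5 of the 6 fits without 1 library (adjusted p up to 0.0744).

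**Figure D2:**
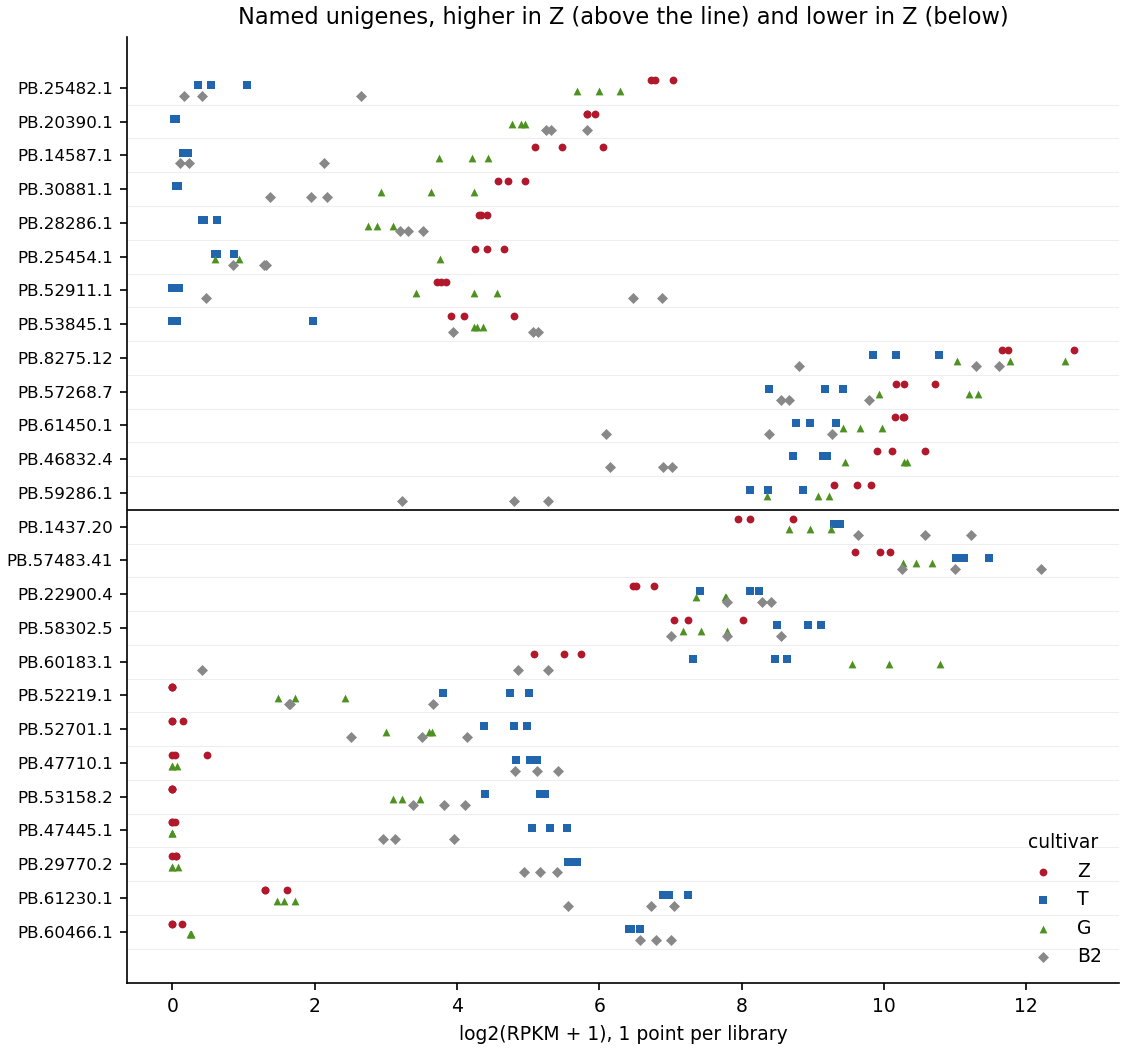
Log2(RPKM + 1) of the 26 named unigenes, 1 point per library, for Z (circles), T (squares), G (triangles) and B2 (diamonds), with unigenes higher in Z above the line. In the lowest 3 entries and in PB.47445.1 and PB.47710.1 the G points lie beside those of Z near 0 to 2 on the axis, and B2 lies nearer T or between.

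Among the unigenes lower in Z, PB.60466.1 had the largest difference in the whole comparison. It was at 86.15, 84.67 and 94.06 RPKM in T, and at 0.10 RPKM in Z replicate 1 and listed at 0 in the other two (difference -6.43, SE 0.089, limma adjusted p = 3.15e-07). G was also near 0, at 0.20, 0.20 and 0.19 RPKM, and B2 as high as T or higher, at 111 ± 17.0 RPKM (SD, n = 3). PB.61230.1 was not close to 0 in Z, with 2.07, 1.47 and 1.47 RPKM, against 150.93, 117.74 and 125.10 RPKM in T. The mean of T was 78.6 times that of Z, and the difference was -5.63 (SE 0.132, limma adjusted p = 5.14e-06). Again G was with Z, at 2.02 ± 0.278 RPKM, and B2 was nearer T, at 94.4 ± 43.8 RPKM.

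PB.29770.2, PB.47445.1 and PB.47710.1 repeated this division, with Z and G both near 0. PB.29770.2 was at 46.04, 50.64 and 46.91 RPKM in T, with no Z library above 0.04 RPKM (difference -5.57, SE 0.0851, limma adjusted p = 3.95e-07). G had at most 0.06 RPKM and B2 had 35.5 ± 5.84 RPKM. PB.47445.1 was at 45.65, 38.70 and 32.22 RPKM in T, not above 0.03 RPKM in Z and listed at 0 in all 3 libraries of G (difference -5.29, SE 0.133). B2 had 9.69 ± 4.20 RPKM, below each T library. PB.47710.1 was at 31.57, 27.56 and 34.04 RPKM in T, at 0.00, 0.03 and 0.40 RPKM in Z (difference -4.82, SE 0.156) and at most 0.05 RPKM in G, with 34.4 ± 7.35 RPKM in B2.

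The other three of the 8 were near 0 in Z only. PB.53158.2 was listed at 0 in all 3 Z libraries and had 34.82, 20.01 and 36.68 RPKM in T (difference -4.93, SE 0.218). G had 8.70 ± 1.34 RPKM and B2 13.0 ± 3.44 RPKM. PB.52701.1 was listed at 0 in Z replicates 2 and 3 and at 0.11 RPKM in replicate 1, with 26.99, 19.76 and 30.53 RPKM in T (difference -4.67, SE 0.162). PB.52219.1 was listed at 0 in all 3 Z libraries, with 25.81, 12.98 and 31.39 RPKM in T (difference -4.52, SE 0.288). In these 3 unigenes T replicate 2 was the lowest of the T libraries, and T was above G and B2 in every library.

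The most abundant of the called unigenes changed far less. By the mean over the 6 libraries, PB.8275.12 was the highest of those higher in Z. It was at 3233.90, 6508.35 and 3432.65 RPKM in Z and at 1749.99, 1153.00 and 923.73 RPKM in T, a ratio of means of 3.44 (difference 1.76, SE 0.331, limma adjusted p = 0.0378). Z replicate 2 was well above the other Z libraries, and the call was lost in each of the 6 fits that left out 1 library (adjusted p up to 0.135). PB.57268.7 behaved alike, at 1156.09, 1688.33 and 1250.03 RPKM in Z and 684.46, 578.75 and 334.81 RPKM in T (difference 1.40, SE 0.277, limma adjusted p = 0.0442), and its call was also lost in all 6. PB.61450.1 was more even, at 1145.25, 1250.85 and 1238.86 RPKM in Z and 643.97, 432.50 and 498.46 RPKM in T (difference 1.22, SE 0.152, limma adjusted p = 0.0105). Its call was lost without T replicate 3 (adjusted p = 0.0586).

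PB.46832.4 and PB.59286.1 completed the 5 most abundant unigenes higher in Z. PB.46832.4 had 1199 ± 295 RPKM in Z and 526 ± 90.4 in T (SD, n = 3 each), a difference of 1.17 (SE 0.203). PB.59286.1 had 775 ± 137 RPKM in Z and 358 ± 97.6 in T, a difference of 1.13 (SE 0.214). Both were far lower in B2, at 106 ± 31.2 and 24.3 ± 14.9 RPKM. Their adjusted p reached 0.105 and 0.123 when 1 library was left out.

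Of the abundant unigenes lower in Z, PB.57483.41 was the highest. It was at 988.71, 1090.30 and 769.55 RPKM in Z and at 2839.63, 2066.22 and 2234.22 RPKM in T (difference -1.33, SE 0.177, limma adjusted p = 0.0128). Without T replicate 3 its adjusted p was 0.0599. PB.1437.20 had 315 ± 95.1 RPKM in Z and 651 ± 19.9 in T, and PB.58302.5 had 181 ± 68.6 in Z and 469 ± 99.8 in T (SD, n = 3 each). Their differences were -1.09 and -1.41 (SE 0.195 and 0.272), and their calls were lost in 5 and 4 of the 6 fits without 1 library. PB.22900.4 was at 90.78, 88.29 and 107.88 RPKM in Z and at 276.72, 169.21 and 301.31 RPKM in T (difference -1.33, SE 0.216), and was lost in 5 of those fits. PB.60183.1 differed most of the 5. It had 52.65, 44.53 and 32.94 RPKM in Z and 396.62, 353.30 and 159.18 RPKM in T (difference -2.70, SE 0.348, limma adjusted p = 0.0117), kept its call in all 6 fits without 1 library (adjusted p up to 0.04996), and was higher still in G, at 753.00 to 1760.97 RPKM. With no filter on low values all 10 of these abundant unigenes lost their calls (adjusted p from 0.0774 to 0.182, and 0.0914 for PB.60183.1). With the spread shared over all 12 libraries 9 of the 10 did, with an adjusted p of 0.240 for PB.60183.1 and 0.367 for PB.61450.1, and PB.22900.4 kept its call.

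Presence and absence were then counted without a test, taking a cultivar to have a transcript when its 3 libraries all reached 1 RPKM and to lack it when all 3 were below 0.1 RPKM. Of the 61856 unigenes in the table, 20 were present in Z and absent from T, of which 8 were listed at 0 in all T libraries. In the opposite direction 32 unigenes were present in T and absent from Z, and 16 were listed at 0 in all Z libraries. The median level where present was 2.90 RPKM for the former and 5.01 RPKM for the latter. The highest were PB.20390.1 and PB.30881.1 in Z, and PB.29770.2 and PB.47445.1 in T. The reference transcripts came from cultivar B1, and reads that differ from it in sequence may map poorly, so an absent value is not the same as absent RNA.

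B2 and G divided these unigenes unequally. Of the 20 absent from T, 16 were present in all 3 G libraries, 15 in all 3 B2 libraries and 11 in both. In those 11, T alone was without the transcript. How often any unigene present in Z or T is also present in G and B2 was not counted. These numbers therefore stand without a base share. None was absent from B2, and 2 were absent from G, PB.33592.1 and PB.8281.2. Of the 32 absent from Z, 13 were present in both B2 and G. Another 12 were absent from G as well as Z. Of these 12, PB.53971.1 was also absent from B2, at 0.02 RPKM on average there against 1.79 RPKM in T. PB.29770.2 and PB.47445.1 were present in B2. In 7 of the other 9, B2 replicates 1 and 2 were at no more than 0.04 RPKM and B2 replicate 3 at 0.93 to 8.43 RPKM, as in PB.3183.11 with a listed 0 in both and 8.43 RPKM in replicate 3. The last 2, PB.12046.1 and PB.33667.1, were close to the presence limit in B2 as in T, with B2 means of 1.29 and 0.94 RPKM against T means of 1.11 and 1.23 RPKM. B2 replicate 3 stood apart in the whole table. In 515 unigenes it reached 1 RPKM while B2 replicates 1 and 2 stayed under 0.1 RPKM, against 22 and 11 unigenes for replicates 1 and 2 set apart in this way. It was below 0.1 RPKM in 191 where both of the others reached 1 RPKM, against 26 and 44. Without B2 replicate 3, an alternative chosen after the data were seen, 8 of the 12 were absent from B2 in place of 1, and of the 20 unigenes absent from T, 16 were present in B2 and 2 were absent. PB.3183.11, PB.12046.1 and PB.33667.1 were named after their values were seen, and no test was made of these divisions.

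The same question was put to all called unigenes by placing the means of B2 and G on the log2 scale between T, set at 0, and Z, set at 1. Of the 201 unigenes higher in Z, G was nearer Z in 152 (75.6%), and of the 190 lower in Z it was nearer Z in 116 (61.1%). Over all tested unigenes G was nearer Z in 53.4%. B2 was nearer Z in 77 (38.3%) and 80 (42.1%), against 48.1% of all tested. The median position of G was 0.758 and 0.705 in the higher and the lower unigenes, that of B2 0.161 and 0.352. B2 lay beyond T, on the side away from Z, in 91 of the 201 unigenes higher in Z (45.3%) and in 47 of the 190 lower (24.7%), against 41.3% of all tested. Both B2 and G were nearer Z in 62 of the higher (30.8%) and 62 of the lower (32.6%), close to the 30.8% of all tested. Both were nearer T in 34 (16.9%) and 56 (29.5%), against 29.3% of all tested. Without B2 replicate 3, B2 was nearer Z in 79 of the higher (39.3%) and 92 of the lower (48.4%), against 51.4% of all tested. The called unigenes were chosen for a gap between Z and T and all tested unigenes were not, so the percentages are given side by side without a test.

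**Figure D3:**
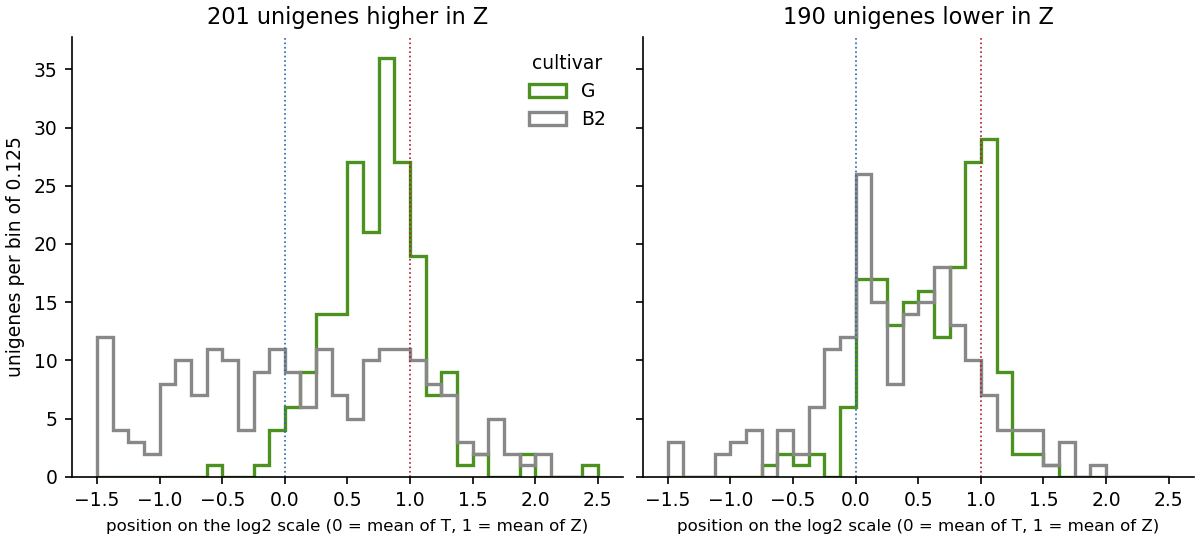
Number of called unigenes by the position of G (green) and B2 (grey) on the log2 scale, where 0 is the mean of T and 1 the mean of Z. Values beyond -1.5 or 2.5 are counted in the end bins, and the peak for G lies just below or at 1 in both panels, whereas B2 is spread from beyond T to beyond Z.

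Libraries within a cultivar were compared because the spread in 3 libraries decides the calls. T replicate 2 stood apart. In 85 unigenes it reached 1 RPKM while both other T libraries stayed below 0.1 RPKM, and in 71 the pattern was the reverse. The other T libraries had 16 to 18 of the former and 18 to 25 of the latter. In Z, replicate 1 stayed below 0.1 RPKM in 90 unigenes for which replicates 2 and 3 reached 1 RPKM, against 11 and 20 in the other two. All 6 libraries were kept in the comparison.

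**Figure D4:**
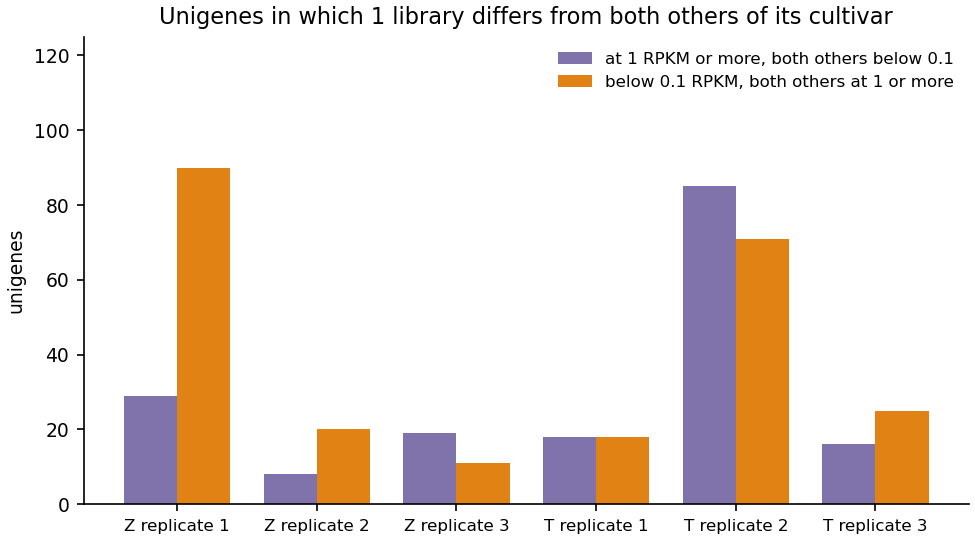
Number of unigenes in which 1 library was at 1 RPKM or more and both others of its cultivar were below 0.1 RPKM, or the reverse, for each of the 6 libraries. T replicate 2 has 85 and 71, and Z replicate 1 has 29 and 90.

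Of the 85 unigenes seen in T replicate 2 alone among T, 22 were at 1 RPKM or more in all 3 Z libraries. More of them, 33, were below 0.1 RPKM in all 3 Z libraries. Of the 71 unigenes missing from T replicate 2 alone, 44 were at 1 RPKM or more in all 3 Z libraries. Only 4 of the 71 were below 0.1 RPKM in all of Z. T replicate 2 thus departed from the other T libraries away from Z more often than toward it. In 19 of the 22 present in Z, all B2 libraries were at 1 RPKM or more too, and in 15 all G libraries. How often this holds for all unigenes at 1 RPKM or more in Z was not counted. Examples named after their values were seen are PB.48547.1 and PB.52869.1. PB.48547.1 was listed at 0 in T replicates 1 and 3 and had 10.81 RPKM in T replicate 2, near the 14.96, 11.46 and 11.48 RPKM of Z. It was not called (difference 2.57, SE 0.900, limma adjusted p = 0.163). PB.52869.1 had 0.04 RPKM in T replicate 1, 6.18 in T replicate 2 and a listed 0 in T replicate 3, against 12.10, 11.44 and 12.10 RPKM in Z (difference 2.72, SE 0.710, limma adjusted p = 0.0874). Of the 22, 8 were called, against 1.30% of all tested unigenes. The 22 were picked with all of Z high and 2 T libraries low, which raises this share by construction. In each of the 8, T replicate 2 was below every Z library, as no called unigene had overlapping values. An example is PB.56817.1, with 1.19 RPKM in T replicate 2 and 9.32 to 14.80 RPKM in Z.

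Within the calls, T replicate 2 was often the T library nearest Z in both directions. It was the lowest of the T libraries in 104 of the 190 unigenes lower in Z (54.7%) and in 39.0% of all tested. It was the highest in 84 of the 201 higher in Z (41.8%), against 30.3% of all tested. T replicate 3 was the highest in 106 of the 190 (55.8%), against 36.0% of all tested, and the lowest in 92 of the 201 higher in Z (45.8%), against 28.7%. Among the calls, T replicate 3 was thus most often the T library farthest from Z. Without T replicate 3 the calls fell to 216, with 103 higher and 113 lower in Z. Without T replicate 2 they rose to 521, of which 309 were higher and 212 lower, and 332 of the 391 calls were among them. Without Z replicate 3 those higher in Z fell to 126. In all 6 fits without 1 library, 177 of the 391 unigenes were called each time, and 0 changed sign.

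**Figure D5:**
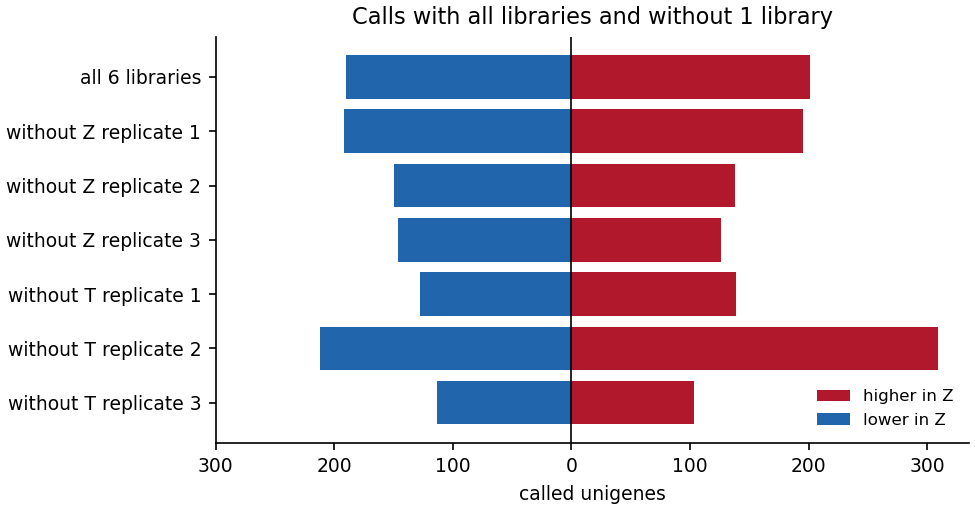
Called unigenes higher in Z (to the right) and lower in Z (to the left) with all 6 libraries and after dropping each library in turn. The counts run from 103 to 309 for higher and from 113 to 212 for lower, both lowest without T replicate 3 and highest without T replicate 2.

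The counts of presence and absence rested on the same libraries. Without T replicate 2, the unigenes present in Z and absent from T rose from 20 to 52, and without Z replicate 1 they rose to 62. Those present in T and absent from Z ranged from 34 to 39 when 1 library was left out, against 32 with all. Every library of a cultivar must pass, so leaving 1 out can only keep or raise these counts.

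Several of the largest differences between the cultivar means were not called, and in these 1 cultivar varied widely. PB.54993.1 had the largest difference without a call, 3.98 (SE 1.02, limma adjusted p = 0.0844), from 1.96, 34.51 and 59.08 RPKM in Z and at most 0.61 RPKM in T. Z itself varied here. PB.52243.1 was at 87.70, 76.46 and 117.66 RPKM in Z and at 0.46, 77.20 and 1.22 RPKM in T, and PB.52477.3 was at 63.35, 64.08 and 87.15 RPKM in Z and at 0.66, 50.03 and 1.29 RPKM in T. Again T replicate 2 was at or near the level of Z while the other T libraries were near 1 RPKM (limma adjusted p = 0.168 and 0.143). In other unigenes without a call T replicate 2 was instead the T library farthest from Z. PB.61801.1 was at 125.42, 0.83 and 185.22 RPKM in T and at 263.95, 235.00 and 251.52 RPKM in Z (limma adjusted p = 0.362). PB.57812.2 was lower in Z, with at most 6.97 RPKM there. T had 734.35 RPKM in replicate 2 against 3.63 and 7.62 RPKM in replicates 1 and 3. In B2 and G that unigene had 408.92 to 920.84 RPKM. These unigenes were named after their values were seen.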

How the data were processed

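Leaf RNA of opium poppy was sequenced as paired ends on an Illumina platform. After removal of low-quality reads, the authors used HISAT2 2.05 to map to unigenes built from long reads of cultivar B1, and RSEM to estimate levels, with no genome build. The deposited values are in RPKM, rounded to 2 decimals (the methods text says FPKM, the data records RPKM). RSEM shares reads among similar unigenes, so values of near-identical unigenes are uncertain. Each of the 12 columns matched a library label, and 0 columns belonged elsewhere.

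From these values the 3 Z and 3 T libraries alone were fitted, with no scaling added. Unigenes at 1 RPKM or more in at least 3 of the 6 libraries were transformed to log2(RPKM + 1), a pseudocount of 1, which understates changes at low levels. limma 3.58.1 in R 4.3.3 (lmFit, eBayes with trend) was used with cultivar as the only factor. Calls needed an adjusted p under 0.05 (Benjamini-Hochberg over all tested) and a log2 difference of 1, the 2-fold threshold of the study. The study used a count-based test, which RPKM do not allow. The test was tried on simulated data, and standard errors are limma's. Libraries are numbered as in the labels, which do not say whether they are separate plants, so p-values measure only the spread between these libraries.

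Depth was sought in the spacing of values from 0.1 to 0.5 RPKM. The most frequent ratio was 1 in 15 of 15 library pairs, with no more than 5.57% of unigenes at it, so the reads behind a value could not be recovered. The study lists the sequenced bases of each library, which were not used here. Among these 6 libraries they were fewest in T replicate 1, where the share of high-quality bases was highest. No 2 of the 6 libraries were identical (0 pairs).

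Named unigenes were called, did not overlap and had a mean of at least 10 RPKM in the higher cultivar: the 8 with the largest difference and the 5 most abundant in each direction, and the 2 in each direction with the largest difference among those present in 1 cultivar and absent from the other, 26 in all. The members, thresholds and rules were chosen with earlier results of these data known. Planned results on unigenes with the same first number (summed level, each unigene against the rest, companions of called unigenes) were not computed, since no number is shared. Alternatives were the pseudocount, the filter, scaling, a spread shared over 12 libraries, the variance trend, a replicate block, thresholds, leaving out each library and, added after the data were seen, leaving out B2 replicate 3. Descriptive steps used Python 3.11.15, numpy 2.4.6, pandas 2.3.3 and matplotlib 3.10.9.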

Additional observations from a re-analysis of the deposited data

How the results depend on the processing

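Of 72 alternative values of the counts, 50 stayed within 1.5 times and 22 moved. With no filter the calls were 145 (61 higher and 84 lower in Z), where 61856 unigenes were tested. A spread shared over 12 libraries gave 255 (128 higher), the adjusted p alone 1111 (580 and 531), and a test against a difference of 1 gave 60 (19 and 41), the last 2 by their construction. For the others the cause was not tested. When each library was dropped in turn, with the tested unigenes kept, the calls ran from 216 to 521. Those higher in Z ran from 103 to 309 and those lower from 113 to 212. Unigenes present in Z and absent from T ran from 21 to 62, and the reverse from 34 to 39, which by construction cannot fall. A higher limit for presence, the bound between low and middle expression classes of the study, gave 5 and 17 unigenes present in Z only and T only, and a listed 0 as absence gave 8 and 16, both narrower by construction. Median-ratio scaling moved the median of all tested unigenes from -0.03 to 0.004 and gave 219 higher and 176 lower.

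Same-numbered libraries of Z and T are not said to be paired, and their deviations correlated at 0.0255, 0.111 and 0.0425, so the numbers were not taken as pairs. With a replicate block the calls were 446 (232 higher and 214 lower), of which 363 were among the 391. Among 416 alternative values of the 26 named unigenes, 351 kept the call, 65 lost it and 0 changed sign. A pseudocount of 0.1 raised the differences of 10 of them by over 1.5 times, at most 1.80 times, all with 1 cultivar near 0 in at least 2 libraries. Alternatives for unigenes of the same first number were not run, as no number is shared. The reads behind each value were not recovered, which limits what a value near 0 can show.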

Other observations

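A set of unigenes outside the tested ones was seen in Z replicates 2 and 3 and was missing from Z replicate 1 and from T. Of 39 unigenes at 1 RPKM or more in Z replicates 2 and 3 and below 0.1 RPKM in Z replicate 1 and in all T libraries, 19 were also at 1 RPKM or more in G replicate 3 and below 0.1 RPKM in G replicates 1 and 2. All 19 were listed at 0 in Z replicate 1 and in the 3 T libraries. They ran from 1.08 to 7.52 RPKM in Z replicates 2 and 3 and from 1.12 to 24.35 RPKM in G replicate 3, with a median of 8.31 RPKM there, and 16 of the 19 were below 0.1 RPKM in all 3 B2 libraries. PB.60535.1, for example, had 3.98 and 3.18 RPKM in Z replicates 2 and 3 and 24.35 RPKM in G replicate 3, and was listed at 0 in the 9 other libraries. Libraries of 1 cultivar thus differed in these values, and no function was read for the identifiers here.

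The highest of the 39 were PB.34672.1 and PB.43210.1. PB.34672.1 had 34.93 and 34.65 RPKM in Z replicates 2 and 3 and was listed at 0 in the 10 other libraries of the 4 cultivars. PB.43210.1 had 29.60 and 26.22 RPKM in Z replicates 2 and 3, 0.02 RPKM in G replicate 3 and a listed 0 elsewhere. These levels in Z were near those of the named unigenes PB.30881.1 and PB.28286.1, which were present in all 3 Z libraries. The unigenes in this section were named after their values were seen, and the patterns were not tested.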
